A study of Arabidopsis thaliana with 6 samples.

Results

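The genes of glucosinolate metabolism were compared between an ERF6-overexpressing line and a control line of Arabidopsis thaliana. The 40 member genes are the MYB regulators, the enzymes of methionine chain elongation, of the indole and aliphatic core pathways and of side-chain modification, the APS kinases that supply activated sulfate, and the myrosinases TGG1, TGG2 and PEN2. Members were found by locus code in the deposited table, where all 40 have a value, in 42 of 30237 rows (40 of 29920 loci). IMD1 has 3 rows, of which the rows numbered 2 and 3 hold identical values, and every other member has 1 row.

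The arrays were 3 of ERF6:IOE, described in the series' design text as a strong ERF6-overexpressing line, and 3 of GFP:IOE, the control line, both in Col-0. Each array was hybridised with total RNA of leaf 3, dissected from seedlings aged 9 DAS that had spent 4 h on MS medium with 5 µM dexamethasone. Both lines therefore received the inducer, no arrays without it were analysed here, and any difference the lines had before it is part of the comparison. Each genotype is 1 line, and the sources used here do not name the promoter or cell type that drives each transgene. Material came from several plates and, per the series' design text, from independent experiments. In whole leaves, less RNA per cell and fewer cells of a type cannot be told apart.

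Glucosinolates are sulfur-rich thioglucosides that defend Brassicaceae against insects and microbes. Indole glucosinolates are made from tryptophan under MYB51, MYB34 and MYB122, and aliphatic ones from chain-elongated methionine under MYB28, MYB29 and MYB76. In both branches a CYP79 enzyme makes an oxime, a CYP83 enzyme activates it for conjugation with glutathione, and GGP1, SUR1, a glucosyltransferase and a sulfotransferase complete the core. When tissue is damaged, TGG1 and TGG2 split glucosinolates into toxic products, whereas PEN2 acts on indole glucosinolates in living cells as part of antimicrobial defence. ERF6 (ETHYLENE RESPONSE FACTOR 6) is an ethylene response factor of the AP2/ERF family.

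All values are log2 expression as deposited, and SDs are over the n = 3 arrays of a line. ERF6 was at 9.99, 9.97 and 10.42 in the ERF6:IOE arrays, against 6.89, 7.38 and 7.55 in the GFP:IOE arrays, the order the labels give. The log2 fold, ERF6:IOE minus GFP:IOE, was 2.85 (SE 0.20, limma adjusted p 0.00107). The leaf label was checked with RBCS1A, LHCA2 and PETE2, which lay between 12.19 and 14.22 in every array, while the 7 root markers lay between 3.30 and 5.21. The lower quartile of an array ranged from 4.03 to 4.08. Values under it are described as dim, since RMA compresses them and detection was not assessed. Root markers reached 5.21, so values above the lower quartile can also lie near background. All values of MYB122, MYB29, CYP79B2, CYP79B3, CYP79F1, MAM3, IPMI1, FMO GS-OX1, FMO GS-OX2, FMO GS-OX4, AOP2 and AOP3 lay within the root marker range. Those of MYB76 and CYP79F2 did too. Folds of these genes, and the absence of a fold, are therefore uncertain. Close relatives (CYP79F1 and CYP79F2, SOT16 and SOT18, FMO GS-OX2 to FMO GS-OX4, TGG1 and TGG2, IGMT1, IGMT2 and IGMT4) may share probe signal, which was not separated.

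Of the 42 member rows, MYB51 and GGP1 were higher in ERF6:IOE and none was lower at an adjusted p of 0.05 (limma, Benjamini-Hochberg over all rows). These 2 higher rows are 4.76% of the member rows, against 0.698% of all rows called higher and 0.0265% called lower (0.724% in either direction). At an unadjusted p under 0.05, 4 member rows were higher and 5 lower, against 4.8% and 3.22% of all rows. The lines did not overlap in 4 member rows with ERF6:IOE higher (9.52%, against 6.93% of all rows) and in 5 with ERF6:IOE lower (11.9%, against 6.52%). The median log2 fold over the member rows was -0.07, beside -0.02 over all rows. The members were chosen with earlier results of these arrays known, so these shares describe them and carry no test of the list.

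**Figure D1:**
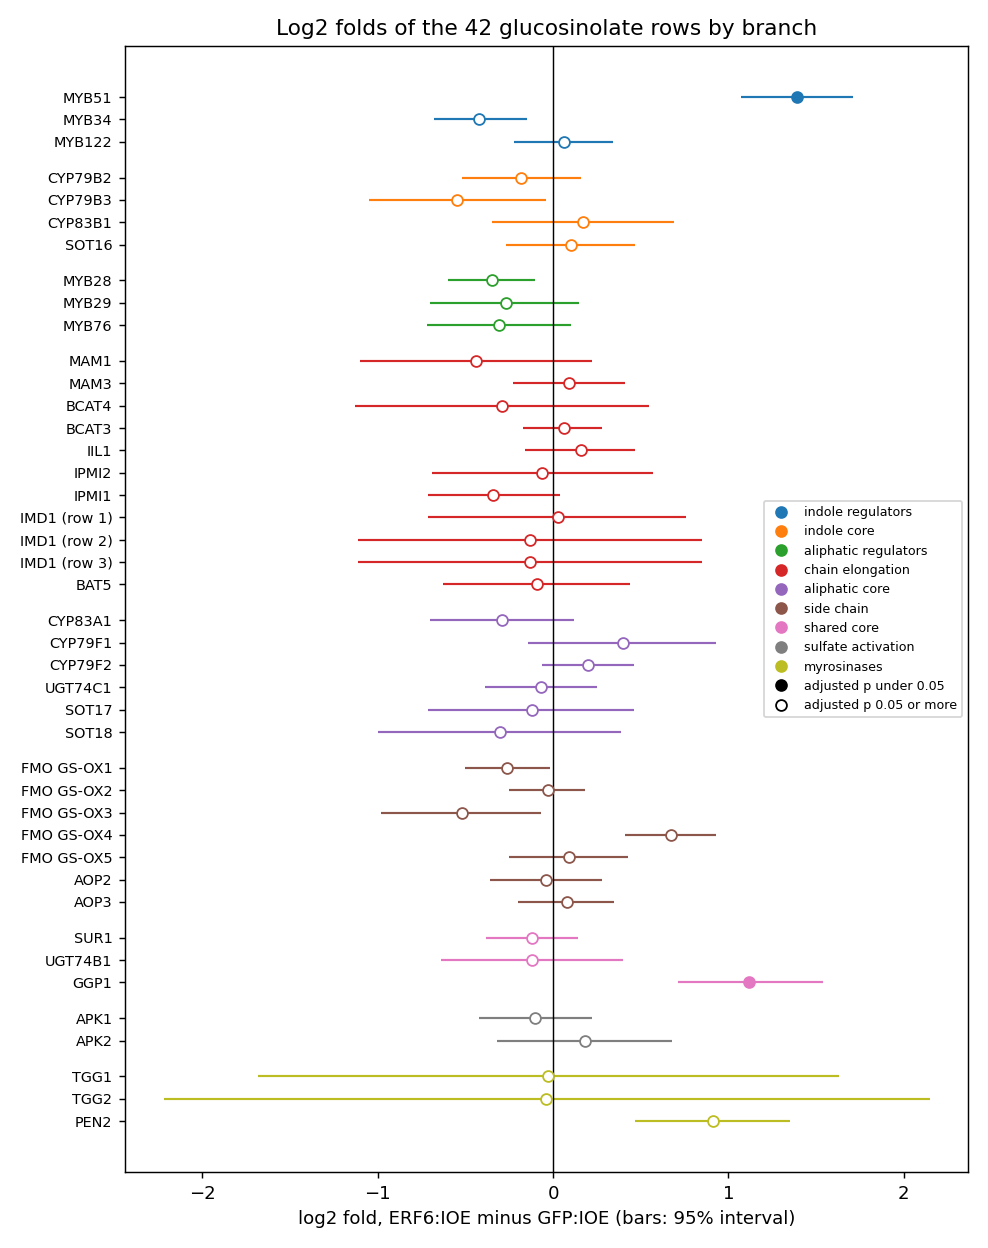
Log2 folds (ERF6:IOE minus GFP:IOE, x axis) of the 42 member rows grouped by branch, with bars for the 95% interval of the limma fit and filled points for an adjusted p under 0.05. MYB51 at 1.39 and GGP1 at 1.12 are the filled points, and the bars of TGG1 and TGG2 are the widest.

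Among the regulators of the indole branch, MYB51 was higher in ERF6:IOE, and MYB34 and MYB122 did not pass. MYB51 (AT1G18570) was at 5.38, 5.21 and 5.05 in ERF6:IOE, against 3.81, 3.65 and 4.01 in GFP:IOE. Every ERF6:IOE array lay above every GFP:IOE array, and all 3 GFP:IOE arrays were dim, so the size of the fold is approximate. The means were 5.21 ± 0.16 in ERF6:IOE and 3.82 ± 0.18 in GFP:IOE, with a log2 fold of 1.39 (SE 0.14, 95% interval 1.07 to 1.71), or 2.62-fold, with a limma adjusted p of 0.00551. With both arrays of repeat 1 left out the limma adjusted p was 0.127, and with both of repeat 2 it was 0.137.

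MYB34 (AT5G60890), also known as ATR1, activates genes of tryptophan and indole glucosinolate synthesis. It was at 6.66, 6.88 and 6.93 in ERF6:IOE, against 7.35, 7.18 and 7.20 in GFP:IOE, so its arrays also did not overlap but lay in the order opposite to those of MYB51. Its log2 fold was -0.42 (SE 0.11, 95% interval -0.68 to -0.15), and it did not pass after adjustment (unadjusted p 0.007, limma adjusted p 0.283). MYB122 (AT1G74080) was at 4.83, 4.72 and 4.75 in ERF6:IOE and at 4.87, 4.50 and 4.75 in GFP:IOE, with overlapping lines and a log2 fold of 0.06 (95% interval -0.22 to 0.34). The difference between the folds of MYB51 and MYB34 was not tested.

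None of the 4 indole core enzyme genes passed, and their log2 folds ran from -0.55 to 0.17. CYP79B3 (AT2G22330), which with CYP79B2 (AT4G39950) converts tryptophan to its oxime, had the lowest fold of the 42 rows. It was at 3.93, 4.33 and 4.69 in ERF6:IOE, against 4.56, 5.04 and 4.98 in GFP:IOE, all within the range of the root markers. The lines overlapped, since the ERF6:IOE array of repeat 3 lay above the GFP:IOE array of repeat 1. Its log2 fold was -0.55 (SE 0.21, 95% interval -1.05 to -0.04, limma adjusted p 0.558).

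CYP79B2 was at 4.32, 4.66 and 4.69 in ERF6:IOE, against 4.53, 4.81 and 4.87 in GFP:IOE (log2 fold -0.18, SE 0.14, limma adjusted p 0.854). CYP83B1, which turns the indole oxime into the form that is conjugated, had a log2 fold of 0.17 (95% interval -0.35 to 0.69). SOT16, the sulfotransferase that favours indole substrates, had a log2 fold of 0.10 (95% interval -0.27 to 0.47). The intervals of CYP79B2, CYP83B1 and SOT16 all lay below the interval of MYB51. Over the 7 rows of indole regulators and indole-specific enzymes the median log2 fold was 0.06, with 1 row higher, 0 lower and 6 that did not pass.

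**Figure D2:**
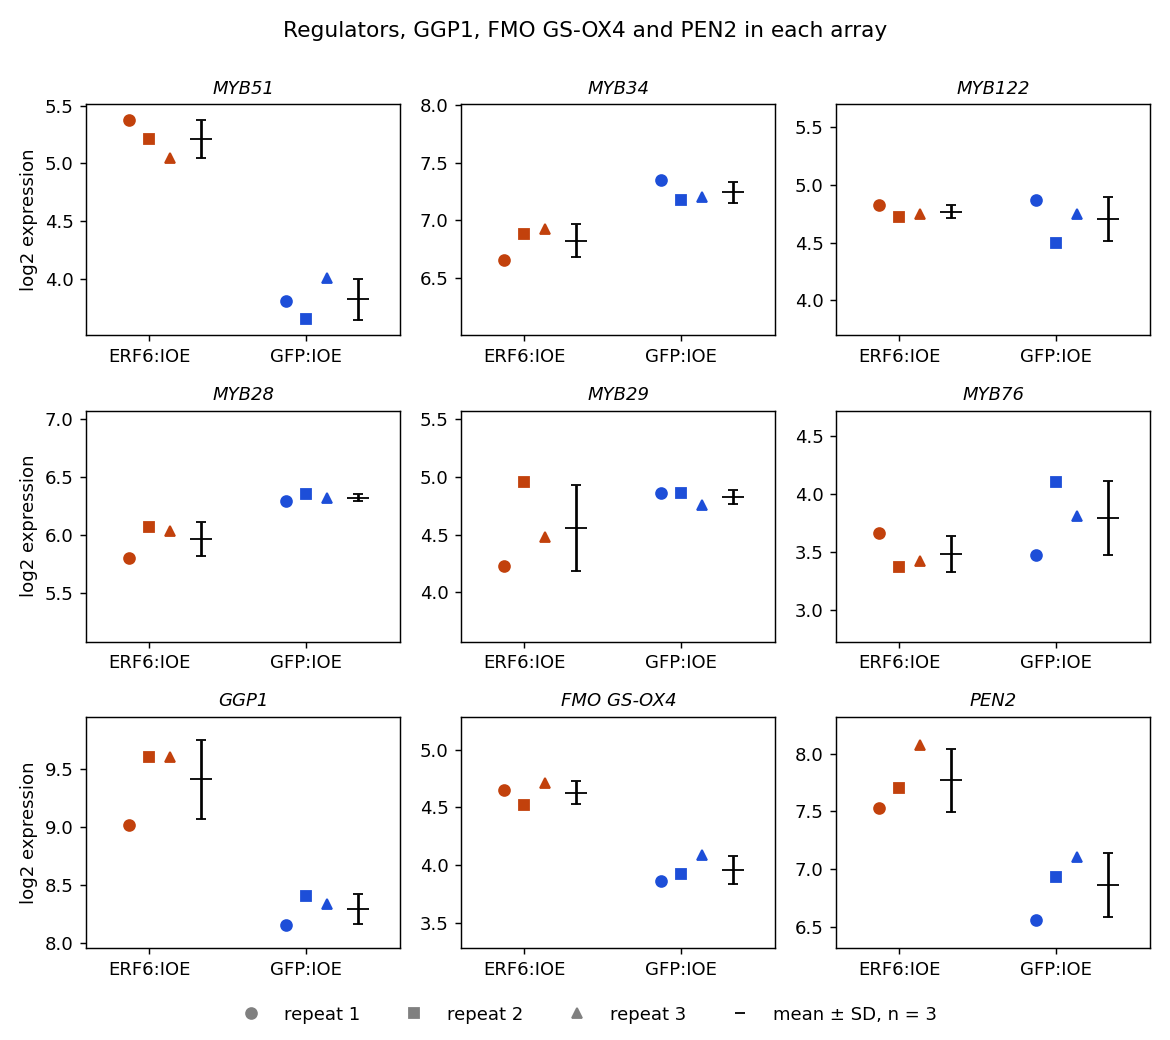
Log2 expression (y axis, a different range in each panel) of the 6 MYB regulators and of GGP1, FMO GS-OX4 and PEN2, with a symbol for each repeat and bars for mean ± SD (n = 3). The ERF6:IOE arrays lie above the GFP:IOE arrays for MYB51, GGP1, FMO GS-OX4 and PEN2, below them for MYB34 and MYB28, and among them for MYB122, MYB29 and MYB76.

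The 3 regulators of the aliphatic branch had log2 folds between -0.35 and -0.27, and none passed. MYB28 (AT5G61420), a main activator of aliphatic synthesis, was at 5.80, 6.07 and 6.03 in ERF6:IOE, against 6.29, 6.35 and 6.32 in GFP:IOE. The lines did not overlap, with a log2 fold of -0.35 (SE 0.11, 95% interval -0.60 to -0.10, unadjusted p 0.0124, limma adjusted p 0.368). MYB29 (AT5G07690), which acts beside MYB28, was at 4.23, 4.96 and 4.48 in ERF6:IOE, against 4.86, 4.86 and 4.76 in GFP:IOE. The ERF6:IOE array of repeat 2 was the highest of the 6, and the log2 fold was -0.27 (95% interval -0.70 to 0.15). MYB76 (AT5G07700), the third activator, was at 3.66, 3.37 and 3.42 in ERF6:IOE and at 3.47, 4.11 and 3.81 in GFP:IOE (log2 fold -0.31, 95% interval -0.72 to 0.10). It was dim on 5 of the 6 arrays.

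Methionine chain elongation, which adds carbons to the side chain in the plastid, showed no called row among 11 rows of 9 genes, with log2 folds from -0.44 to 0.16 and a median of -0.09. MAM1 (AT5G23010), a methylthioalkylmalate synthase that condenses the growing chain, was at 4.77, 5.70 and 5.38 in ERF6:IOE, against 5.51, 6.21 and 5.45 in GFP:IOE. The lines overlapped, and the log2 fold was -0.44 (SE 0.28, limma adjusted p 0.795). MAM3, its paralog for longer chains (IMS2 in the name table), had a log2 fold of 0.09 (95% interval -0.23 to 0.41).

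IPMI1 (AT3G58990), a small subunit of the isomerase of the cycle, was at 4.31, 4.88 and 4.76 in ERF6:IOE, against 5.03, 5.04 and 4.88 in GFP:IOE. Before rounding the highest ERF6:IOE value lay 0.01 under the lowest GFP:IOE value, so the lines just failed to overlap, and the log2 fold was -0.34 (SE 0.16, limma adjusted p 0.677). The other small subunit, IPMI2, had a log2 fold of -0.06, and the large subunit IIL1, which also serves leucine synthesis, 0.16. BCAT4, the aminotransferase that starts the pathway, had a log2 fold of -0.29 (95% interval -1.13 to 0.55) and BCAT3, which also acts in amino acid synthesis, 0.06 (-0.17 to 0.28). BAT5, a plastid carrier of the keto acids, had a log2 fold of -0.09.

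IMD1 (AT5G14200), the dehydrogenase of the cycle, was the most scattered chain elongation gene in ERF6:IOE. Its rows 2 and 3 were at 5.07, 6.46 and 6.87 in ERF6:IOE, against 6.34, 6.43 and 6.02 in GFP:IOE. The ERF6:IOE values thus lay on both sides of the GFP:IOE values, with a log2 fold of -0.13 (95% interval -1.11 to 0.85). Row 1 gave 0.03 (95% interval -0.71 to 0.76).

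The 6 aliphatic core genes did not pass either, with log2 folds from -0.30 to 0.40. CYP79F1 (AT1G16410), which makes oximes from chain-elongated methionines, was at 5.09, 4.44 and 4.18 in ERF6:IOE, against 4.13, 4.02 and 4.36 in GFP:IOE. The lines overlapped, and the log2 fold was 0.40 (SE 0.23, limma adjusted p 0.762). CYP79F2 (AT1G16400), its close paralog for long chains, was at 3.64, 3.94 and 3.81 in ERF6:IOE, against 3.68, 3.57 and 3.55 in GFP:IOE (log2 fold 0.20, SE 0.11, limma adjusted p 0.748). It was dim on all 6 arrays.

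CYP83A1, the next enzyme of the aliphatic branch, had a log2 fold of -0.29 (95% interval -0.70 to 0.12). The aliphatic sulfotransferase genes SOT17 and SOT18 had -0.12 and -0.30, and the glucosyltransferase gene UGT74C1 (AT2G31790) -0.07. Over the 20 rows of aliphatic regulators, chain elongation and aliphatic core, 14 had a log2 fold below 0 (70%, against 53.8% of all rows), and the median was -0.13. IMD1 gives 3 of these rows, and with rows of a locus averaged the median over 18 genes was -0.11. The median of the 20 rows moved when single arrays were left out. It was 0.03, -0.28 and -0.24 without ERF6:IOE replicate 1, 2 and 3. Without GFP:IOE replicate 1, 2 and 3 it was -0.11, -0.05 and -0.25. Among these it changed sign only without ERF6:IOE replicate 1.

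ERF6:IOE replicate 1 was the lowest array of its line in most member rows. In 33 of 42 member rows (78.6%) ERF6:IOE replicate 1 was the lowest ERF6:IOE array, against 34.2% of all rows, and in the 20 aliphatic rows it was the lowest in 16. The control arrays were uneven too, since GFP:IOE replicate 1 was the lowest of its line in 21 of 42 member rows (50%, against 34.1% of all rows) and GFP:IOE replicate 3 in 13 of the 20 aliphatic rows (65%, against 32.1%). The 3 IMD1 rows count separately here, although rows 2 and 3 are identical. Each was lowest in ERF6:IOE replicate 1 and in GFP:IOE replicate 3 of its line. The median deviation of those 20 rows from the GFP:IOE mean was -0.60, 0.15 and -0.03 in ERF6:IOE repeats 1, 2 and 3, against -0.01, 0.13 and -0.10 in the GFP:IOE arrays. Over all rows the corresponding medians lay between -0.02 and 0. Of the 3 phloem and vascular markers, SUC2 (5.79, 6.47 and 6.47) and SWEET11 (4.77, 5.92 and 5.84) were also lowest in ERF6:IOE replicate 1, while SWEET12 was at 4.07, 3.84 and 4.08. In GFP:IOE, these were at 5.72, 6.30 and 5.93 for SUC2, at 5.15, 4.79 and 4.98 for SWEET11 and at 3.98, 4.12 and 4.20 for SWEET12. Of the 4 guard cell and myrosin cell markers, FAMA (5.17, 5.47 and 5.55), MYB60 (4.70, 5.41 and 5.07) and KAT1 (4.29, 5.26 and 4.77) were lowest in ERF6:IOE replicate 1 as well, and HT1 was at 4.26, 4.78 and 4.24. The part of either tissue in the aliphatic values was not tested.

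**Figure D3:**
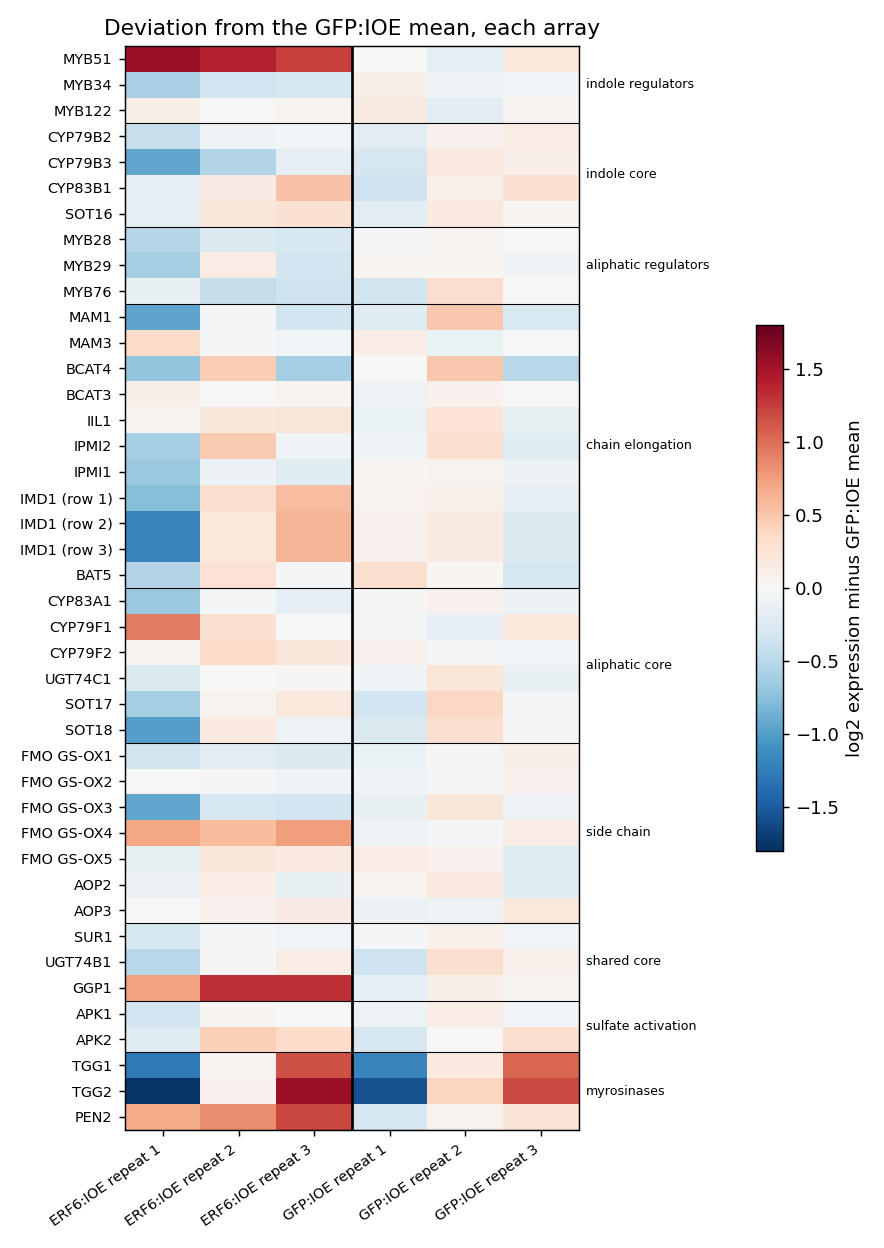
Deviation of each member row from its GFP:IOE mean (colour, log2 units) in the 3 ERF6:IOE and 3 GFP:IOE arrays, with rows grouped by branch. ERF6:IOE repeat 1 is blue through most aliphatic rows (median deviation -0.60 over 20 rows), MYB51, GGP1, FMO GS-OX4 and PEN2 are red in all ERF6:IOE arrays, and TGG1 and TGG2 change colour with the repeat in both lines.

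Side-chain modification held one gene at the edge of the threshold. FMO GS-OX1 to FMO GS-OX5 are flavin monooxygenases that oxidise the sulfur of the side chain. FMO GS-OX4 (AT1G62570) was at 4.65, 4.52 and 4.71 in ERF6:IOE, against 3.86, 3.92 and 4.09 in GFP:IOE. The lines did not overlap, and 2 of the 3 GFP:IOE arrays were dim. The means were 4.63 ± 0.10 in ERF6:IOE and 3.96 ± 0.12 in GFP:IOE, with a log2 fold of 0.67 (SE 0.11, 95% interval 0.41 to 0.93), or 1.59-fold, with a limma adjusted p of 0.0518. It passed in 4 of 17 alternatives, with limma adjusted p from 0.0236 (rows above the 30th percentile of level) to 0.38 (both arrays of repeat 2 left out).

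FMO GS-OX3 (AT1G62560), a near relative of FMO GS-OX4, lay on the other side of 0. It was at 4.15, 4.79 and 4.74 in ERF6:IOE, against 4.95, 5.31 and 5.00 in GFP:IOE, with no overlap. The log2 fold was -0.52 (SE 0.19, 95% interval -0.98 to -0.07, limma adjusted p 0.512). FMO GS-OX1 had a log2 fold of -0.26 (95% interval -0.50 to -0.02, limma adjusted p 0.578), FMO GS-OX2 of -0.03 and FMO GS-OX5 of 0.09. AOP2 and AOP3, dioxygenases that convert the oxidised side chain in other accessions, had log2 folds of -0.04 and 0.08.

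Of the genes that both branches share, GGP1 was higher in ERF6:IOE. GGP1 (AT4G30530) encodes a gamma-glutamyl peptidase that trims the glutathione conjugate. It was at 9.02, 9.61 and 9.61 in ERF6:IOE, against 8.15, 8.40 and 8.33 in GFP:IOE. The lines did not overlap. The means were 9.42 ± 0.34 in ERF6:IOE and 8.29 ± 0.13 in GFP:IOE, with a log2 fold of 1.12 (SE 0.18, 95% interval 0.71 to 1.54), or 2.18-fold, with a limma adjusted p of 0.0459. The call was lost after renewed quantile normalization (limma adjusted p 0.0518), without any 1 array other than ERF6:IOE replicate 1 (0.15 to 0.165) and without any 1 repeat of both lines (0.0573 to 0.385).

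The C-S lyase gene SUR1 (AT2G20610), which acts after GGP1, was at 6.77, 7.04 and 7.01 in ERF6:IOE, against 7.03, 7.15 and 7.01 in GFP:IOE. These overlapped, with a log2 fold of -0.12 (SE 0.11, 95% interval -0.38 to 0.14, limma adjusted p 0.88). The glucosyltransferase gene UGT74B1 also had a log2 fold of -0.12 (95% interval -0.64 to 0.40). The intervals of SUR1 and UGT74B1 lay below that of GGP1.

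The kinases that make the activated sulfate used by the sulfotransferases did not pass. APK1 (AT2G14750, APK in the name table) was at 7.26, 7.63 and 7.61 in ERF6:IOE, against 7.51, 7.74 and 7.55 in GFP:IOE (log2 fold -0.10, SE 0.14, limma adjusted p 0.923). APK2 (AT4G39940, AKN2) was at 5.44, 6.10 and 6.00 in ERF6:IOE, against 5.37, 5.68 and 5.96 in GFP:IOE (log2 fold 0.18, SE 0.21, limma adjusted p 0.91). Both overlapped between the lines.

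Among the myrosinases, PEN2 lay higher in every ERF6:IOE array but missed the threshold. PEN2 (AT2G44490) was at 7.53, 7.70 and 8.07 in ERF6:IOE, against 6.56, 6.93 and 7.10 in GFP:IOE. The means were 7.77 ± 0.28 in ERF6:IOE and 6.86 ± 0.28 in GFP:IOE, with a log2 fold of 0.91 (SE 0.19, 95% interval 0.47 to 1.35), or 1.88-fold, with an unadjusted p of 0.00163 and a limma adjusted p of 0.128. PEN2 passed in 1 of 18 alternatives, the fit with equal repeat numbers as a block (limma adjusted p 0.0475). No label states that equal numbers share an experiment.

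TGG1 and TGG2, the classical leaf myrosinases of guard cells and myrosin cells, differed far more between repeats than between lines. TGG1 (AT5G26000) was at 7.45, 8.77 and 9.86 in repeats 1, 2 and 3 of ERF6:IOE, against 7.52, 8.89 and 9.75 in the same repeats of GFP:IOE. TGG2 (AT5G25980) was at 5.81, 7.65 and 9.13 in ERF6:IOE, against 6.00, 7.95 and 8.76 in GFP:IOE. Within a line the highest and lowest arrays of TGG2 thus differed 9.94-fold in ERF6:IOE and 6.8-fold in GFP:IOE, and those of TGG1 5.33-fold and 4.68-fold.

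Arrays of the same repeat number differed by at most 0.11 for TGG1 and 0.37 for TGG2, while arrays of different lines and numbers differed by at least 0.97 and 1.11. By SD within a line, averaged over the lines as variances, TGG2 ranked 5 and TGG1 ranked 12 of all 30237 rows. In the main fit, which ignores the repeat number, the log2 fold of TGG1 was -0.03 (95% interval -1.68 to 1.63). That of TGG2 was -0.04 (-2.22 to 2.15), and both intervals include large changes either way. With equal repeat numbers fitted as a block, the intervals were -0.28 to 0.23 for TGG1 and -0.44 to 0.36 for TGG2. No label states that equal numbers share an experiment.

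Markers of guard cells and myrosin cells were less scattered. FAMA, the transcription factor that specifies both cell types, was at 5.17, 5.47 and 5.55 in ERF6:IOE, against 5.18, 5.22 and 5.34 in GFP:IOE, the same order of repeats as TGG1 and TGG2 over ranges of 0.38 and 0.16. MYB60, KAT1 and HT1, which act in guard cells, had ranges of 0.70, 0.97 and 0.54 in ERF6:IOE and of 0.74, 0.55 and 0.43 in GFP:IOE, against 2.41 and 2.23 for TGG1. For each of these 3 genes the highest repeat was not the same in both lines. The part of cell type numbers in the TGG1 and TGG2 values was not tested.

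The order of repeats seen in TGG1 and TGG2, lowest in repeat 1 and highest in repeat 3 of both lines, occurred in 6 of 42 member rows (14.3%, against 4.46% of all rows). The other 4 were CYP79B2, CYP83B1, AOP3 and PEN2. PEN2 combined it with a difference of lines, at 0.97, 0.78 and 0.97 between arrays of the same number.

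**Figure D4:**
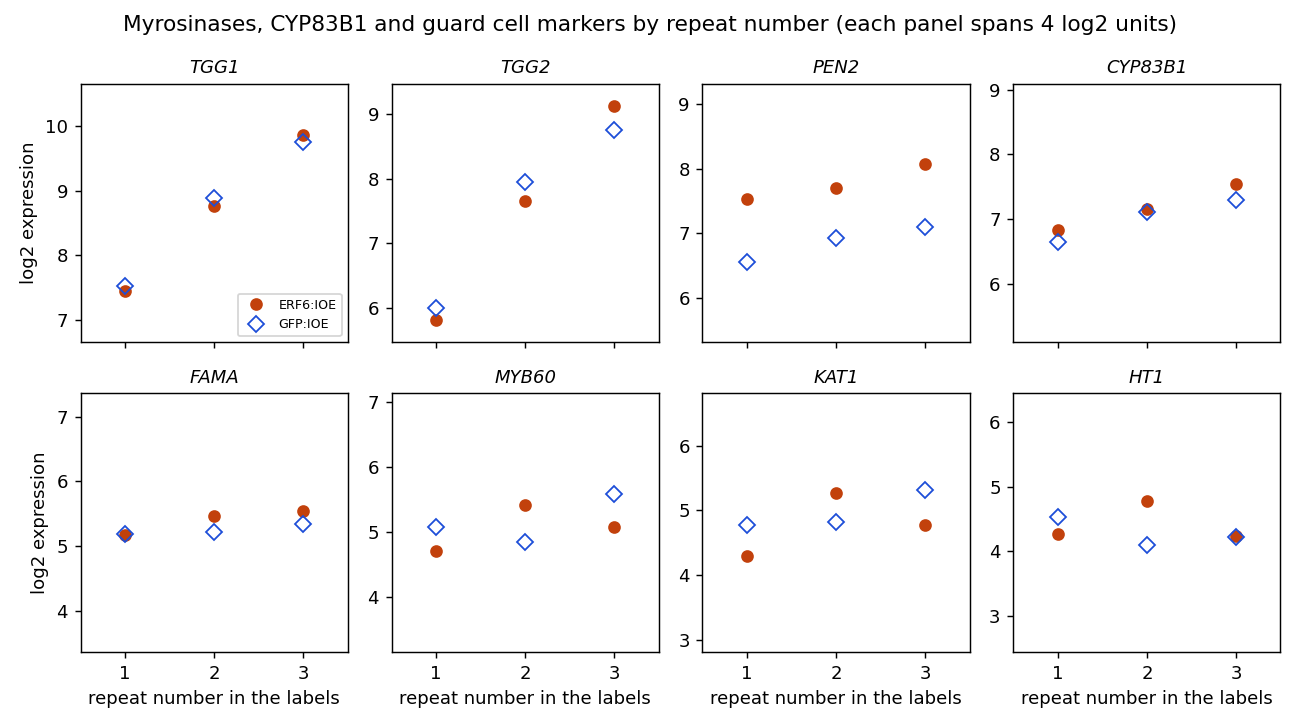
Log2 expression (y axis, each panel spanning 4 log2 units) by repeat number (x axis) for TGG1, TGG2, PEN2, CYP83B1 and the markers FAMA, MYB60, KAT1 and HT1, with filled circles for ERF6:IOE and open diamonds for GFP:IOE. TGG1 and TGG2 span over 2 log2 units between repeats with the lines side by side, while PEN2 shows the ERF6:IOE arrays above those of GFP:IOE in each repeat.

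Around the core, CYP81F2, IGMT1, IGMT2, IGMT4 and PEN3 of indole glucosinolate modification and export were higher in ERF6:IOE. The glutathione transferase genes GSTF10 and GSTU13 were higher too. Of 59 measured genes in 9 further lists (61 listed), 7 were higher, 0 lower and 52 did not pass, against 0.698% of all rows called higher. All 7 belong to 2 lists. The lists were drawn up with earlier results of these arrays known, so the counts are a description.

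Of 9 measured indole modification and export genes, 5 were higher and 4 did not pass, with a median log2 fold of 1.41. CYP81F2, which hydroxylates the indole ring, was at 6.28, 6.15 and 6.16 in ERF6:IOE, against 3.86, 3.76 and 4.17 in GFP:IOE, where 2 arrays were dim (log2 fold 2.27, limma adjusted p 0.000376). Its relatives CYP81F1, CYP81F3 and CYP81F4 had log2 folds of -0.30, -0.03 and -0.17 and did not pass. All values of these relatives lay within the root marker range, so the absence of a fold is uncertain. Within this family the call fell on 1 of 4 genes.

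The methyltransferase genes that act on the hydroxylated ring were also split. IGMT4 was at 10.47, 10.52 and 10.86 in ERF6:IOE, against 7.32, 7.84 and 8.49 in GFP:IOE. IGMT1 was at 5.40, 6.00 and 6.03 in ERF6:IOE, against 3.17, 3.20 and 3.12 in GFP:IOE, and IGMT2 at 5.17, 5.18 and 5.62, against 3.08, 3.16 and 3.56. IGMT1 and IGMT2 were dim in all GFP:IOE arrays. On the log2 scale the folds were 2.06 for IGMT2 (95% interval 1.65 to 2.47), 2.65 for IGMT1 (2.24 to 3.05) and 2.74 for IGMT4 (2.08 to 3.39), and differences among them were not tested.

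IGMT5, a more distant relative of the other IGMT genes, was at 4.75, 5.65 and 5.42 in ERF6:IOE, against 5.23, 5.40 and 5.85 in GFP:IOE, with a log2 fold of -0.22. PEN3, the transporter gene that works with PEN2, was at 7.29, 7.10 and 7.45 in ERF6:IOE, against 5.78, 5.82 and 6.02 in GFP:IOE (log2 fold 1.41, limma adjusted p 0.004). Without repeat 1, 2 or 3 of both lines its limma adjusted p was 0.127, 0.0737 and 0.0501. IGMT2 and IGMT4 also missed the threshold with both arrays of repeat 1 left out (limma adjusted p 0.0857 and 0.0749) or both of repeat 2 (0.0846 and 0.163).

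Of 6 genes for glutathione transfer and synthesis, 2 were higher. GSTU13, a glutathione transferase gene linked to indole glucosinolate defence, was at 9.89, 10.17 and 10.22 in ERF6:IOE, against 7.66, 8.18 and 8.12 in GFP:IOE (log2 fold 2.11, limma adjusted p 0.002, and 0.0501 without repeat 3 of both lines). GSTF10 was at 10.69, 10.79 and 10.74 in ERF6:IOE, against 8.51, 8.71 and 8.81 in GFP:IOE (log2 fold 2.06, limma adjusted p 0.000269). GSTF9, GSTF11 and GSTU20, proposed like GSTF10 for glucosinolate synthesis, had log2 folds of 0.07, -0.22 and 0, and GSH1, of glutathione synthesis, 0.21. All values of GSTF11 lay within the root marker range.

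**Figure D5:**
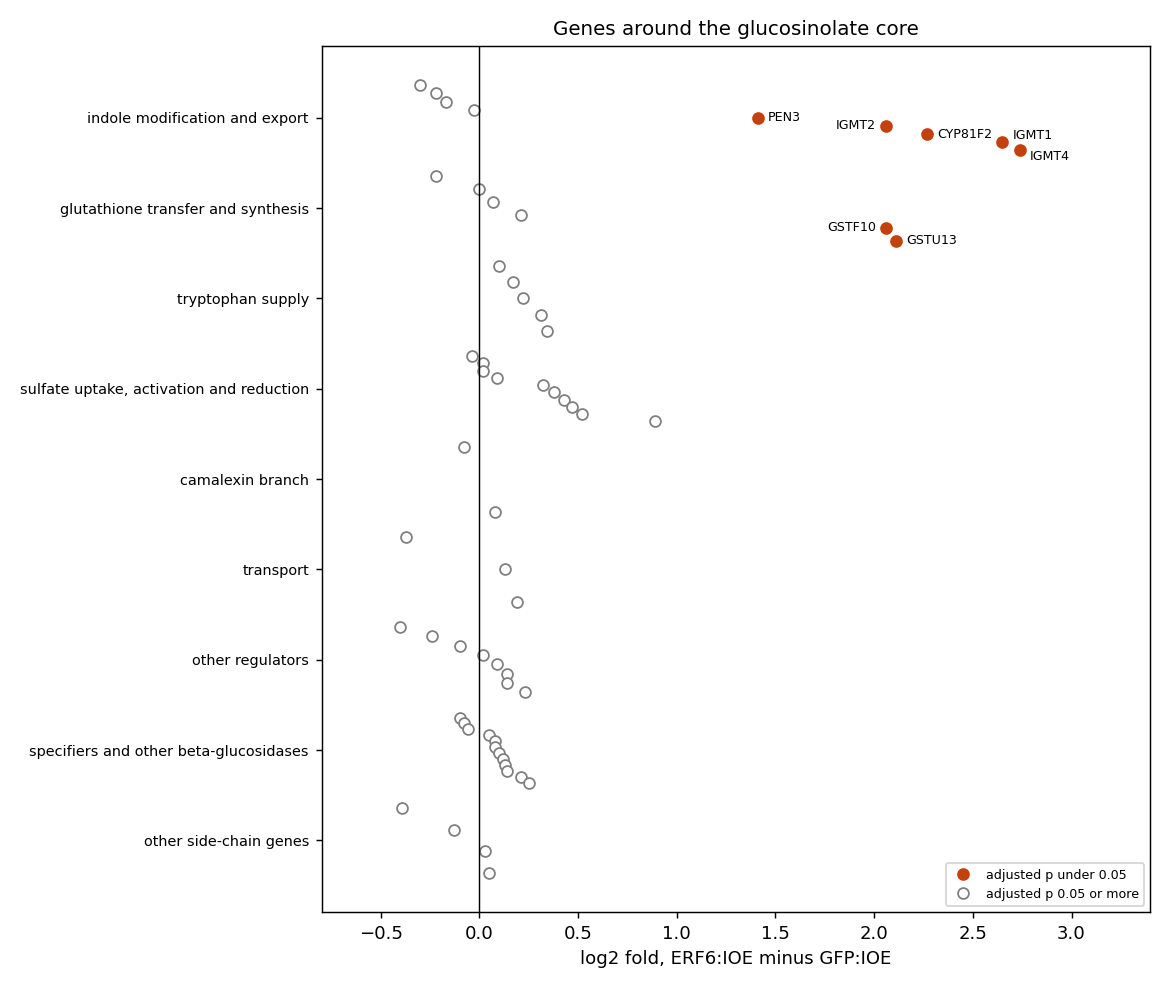
Log2 folds (ERF6:IOE minus GFP:IOE, x axis) of 59 genes in 9 lists around the glucosinolate core, with filled points for an adjusted p under 0.05 (limma). The 7 filled points lie between 1.41 and 2.74, all in the lists of indole modification and export and of glutathione transfer and synthesis.

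Sulfate assimilation and tryptophan supply showed log2 folds mostly above 0 without a call. Of 10 sulfate genes 9 had a log2 fold above 0, with a median of 0.35. Over all rows 13978 of 30237 lay above 0, with a median of -0.02. Genes of a list were measured on the same arrays, so their signs are not independent, and no list was tested. APR3, an APS reductase gene, was at 8.21, 8.11 and 8.58 in ERF6:IOE, against 7.29, 7.39 and 7.57 in GFP:IOE. The lines did not overlap, and the log2 fold was 0.89 (SE 0.15, limma adjusted p 0.0583). It passed in 3 of 18 alternatives, with limma adjusted p from 0.0203 (rows above the median level) to 0.335 (both arrays of repeat 1 left out). The ATP sulfurylase genes APS1 and APS3 had log2 folds of 0.43 (SE 0.13, limma adjusted p 0.344) and 0.38 (SE 0.13, limma adjusted p 0.463).

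All 5 tryptophan synthesis genes had log2 folds above 0, between 0.10 and 0.34, beside 13978 of all 30237 rows above 0, and none passed. ASA1, the gene of the committed step, was at 6.88, 6.79 and 6.85 in ERF6:IOE, against 6.41, 6.64 and 6.46 in GFP:IOE (log2 fold 0.34, SE 0.10, limma adjusted p 0.367). TSB1 and TSA1, the tryptophan synthase genes, had 0.31 and 0.22. The camalexin genes PAD3 and CYP71A13, which draw on the same indole oxime, had log2 folds of 0.08 and -0.08. All values of PAD3 and CYP71A13 lay within the root marker range, so the absence of a fold is uncertain.

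The remaining lists held no called gene. Among transporters, GTR2 had a log2 fold of -0.37, GTR1 of 0.19 and GTR3 (NRT1.9 in the name table) of 0.13. Of the other regulators, MYC3, OBP2 and MYC2 had 0.23, 0.14 and -0.24. Of 12 measured specifier and beta-glucosidase genes, ESM1, NSP4 and NSP2 had the largest moderated t, at log2 folds of 0.25, 0.21 and -0.10. GSL-OH (AT2G25450), BZO1 and AT1G12160 of side-chain metabolism had -0.39, -0.13 and 0.05. BZO1 was dim on all 6 arrays, and all values of GTR3, NSP2 and AT1G12160 lay within the root marker range.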

How the data were processed

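Gene expression was measured in 6 arrays (AGRONOMICS1 tiling arrays, biotin-labelled total RNA). Per the submitters' processing notes, which name RMA, limma and TAIR9, the authors deposited the log2 values used here in 1 table, and the sources hold no versions or settings. RMA removes overall shifts between arrays and compresses dim values. Array medians were 4.85 to 4.90. Precision is limited by the 3 arrays per line.

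Lines were compared with limma 3.58.1 (lmFit, eBayes) in R 4.3.3 over all 30237 rows, unfiltered, two-sided, with Benjamini-Hochberg adjustment and a threshold of 0.05. Arrays correlated with r of 0.984 to 0.987 within a line and 0.977 to 0.983 between lines. In simulated tables of 30237 rows for this comparison, 16.3% of 1.5-fold, 60.9% of 2-fold and 90.9% of 4-fold changes were recovered, and 3.04% of calls were false. Each simulated table had 200 changed rows of random direction and normal noise drawn independently for each array. Variation shared between arrays was left out, so the rates may differ for the real arrays.

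Members and lists were chosen with earlier results of these data known. Array values are given for the 6 MYBs, members called or with an absolute log2 fold of at least 0.5, the 2 members of largest moderated t per branch, called genes of the further lists and cell type markers. They are also given for APR3 and ASA1, which were not called but had the largest moderated t of their lists. The array values of IMD1 and IGMT5 and the comparison of repeat orders were chosen after values were seen. Of the further lists, called genes and the 3 largest moderated t are named, and relatives of called genes were added after values were seen. Symbols come from a table of assembly TAIR10.1, in which all 40 members matched. Coordinates are left out because that build is not TAIR9.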

Additional observations from a re-analysis of the deposited data

How the results depend on the processing

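No alternative reversed a called gene, and 51 of 738 member values under 18 alternatives changed sign, none of them called. All rows called higher numbered 211, and 45 to 126 with an array or a repeat left out. All rows called lower numbered 8, 22 in rows above the median level and 14 in rows above the 30th percentile (both test fewer rows), 5 with the replicate block and 1 to 6 with an array or a repeat left out. Member rows called higher numbered 2, and 1 above the median level, where MYB51 was not tested, 0 to 2 with an array or a repeat left out, and 3 with centring, cyclic loess, rows above the 30th percentile (each adding FMO GS-OX4) and the replicate block (adding PEN2). No member row was called lower in any alternative. Over all alternatives the median log2 fold of the aliphatic rows lay between -0.29 and 0.03 and that of the indole rows between -0.04 and 0.11.

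No label ties a repeat number to one experiment. Deviations from the line means correlated at 0.192, 0.0782 and 0.21 between arrays of equal number. Between arrays of unequal number the correlations ran from -0.223 to 0.0266. Since the values for equal numbers were low and no label exists, the numbers were not taken to pair the arrays. Each array correlated best with its own number, a hint from the data. In the fit with the replicate block 143 rows were higher and 5 lower, PEN2 passed (limma adjusted p 0.0475), and MYB51 (0.0403) and GGP1 (0.0455) were called. The 95% intervals narrowed to -0.28 to 0.23 for TGG1 and -0.44 to 0.36 for TGG2. Signal over background was not analysed here.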

Other observations

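The following genes were picked with their values in view. Of the 20 rows with the largest SD within a line, 7, TGG1 and TGG2 among them, shared the order of TGG1 and TGG2, lowest in repeat 1 and highest in repeat 3 of both lines, against 4.46% of all rows. They include the cold response regulator gene CBF1, at 4.45, 4.94 and 8.11 in ERF6:IOE, against 5.44, 5.58 and 7.88 in GFP:IOE, and DREB1A, at 5.81, 5.90 and 8.93 in ERF6:IOE, against 6.08, 6.15 and 8.64 in GFP:IOE. Both set repeat 3 apart, whereas TGG1 and TGG2 differed between all 3 repeats. ELIP2, a light stress gene, lay in the opposite order, at 9.17, 8.49 and 7.01 in ERF6:IOE, against 9.13, 8.68 and 6.66 in GFP:IOE.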
